A study of Mus musculus with 6 samples.

Results

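The genes of coenzyme Q synthesis were followed in 3T3-L1 cells with and without resveratrol. The 10 genes considered were Pdss1, Pdss2, Coq2, Coq3, Coq5, Coq6, Coq7, Coq8a, Coq9 and Coq10b. They were found by taking all probe sets that the platform annotation gives to exactly 1 of them, older symbols included. This gave 16 probe sets for 9 genes, of 18193 genes that the array names in this way, and Pdss1 was not analysed here. The data are 6 one-colour arrays. Of these, 3 are from control cultures (control replicates 1 to 3) and 3 from cultures given resveratrol, a plant polyphenol (resveratrol replicates 1 to 3). All arrays come from 3T3-L1, an established mouse preadipocyte line, so they share 1 genetic background. The labels give no dose, vehicle, duration or state of differentiation, and they do not say whether replicate cultures were grown on separate occasions. The p-values therefore measure only the spread between these arrays, whose number limits the precision. The question put to the arrays is how resveratrol treatment shifts the transcripts of these cells.

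Coenzyme Q, or ubiquinone, is the lipid that carries electrons from complexes I and II and from several other dehydrogenases to complex III in the inner mitochondrial membrane, and its reduced form is an antioxidant. Its isoprenoid tail comes from the mevalonate pathway and its ring from tyrosine. The tail is joined to the ring by Coq2, and a complex of Coq proteins on the matrix side of the membrane then modifies the ring. Fat cells use the carrier when they oxidise fatty acids and glycerol 3-phosphate.

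Resveratrol-treated cells had less transcript of Coq8a, Coq3, Coq5 and Coq6 and more of Coq2. Coq8a, which encodes an atypical kinase-like protein that supports the synthesis complex, fell 2.46-fold in mean intensity. The ring-modifying enzymes Coq3, Coq5 and Coq6 fell by 19.1%, 21.4% and 24.1%. Coq2, the enzyme that attaches the tail to the ring, was higher by 31.2%. The call of Coq8a held under all 17 alternative settings of the analysis. Those of Coq2, Coq5, Coq6 and Coq3, by their brightest probe sets, held under 13, 11, 10 and 9 of them. Of the 9 genes tested, each by its brightest probe set, 4 fell, 1 rose and 4 did not pass. Over all 12630 genes tested, 10.5% changed, 5.21% lower and 5.32% higher. A gene passed when limma's adjusted p (Benjamini-Hochberg over all 27022 probe sets tested) was under 0.05. The change is on the log2 scale of intensity plus 16, which understates changes of dim probe sets.

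The stretches before the start sites of Coq8a and Coq6, whose transcripts fell, and of Coq2, whose transcript rose, are shown because they set genes of opposite direction side by side. Each is the 250 bases before a RefSeq start on GRCm38.p6, 5′ to 3′ on the gene's strand. Capitals mark CCAAT, the CCAAT box, and AGGTCA, a nuclear receptor half-site, on either strand. Coq8a has 2 listed starts, at chr1:180196021-180196270 (upstream window, minus strand) and chr1:180193486-180193735 (downstream window, minus strand). The Coq6 window is chr12:84361718-84361967 (plus strand) and that of Coq2 is chr5:100674257-100674506 (minus strand).
Coq8a upstream: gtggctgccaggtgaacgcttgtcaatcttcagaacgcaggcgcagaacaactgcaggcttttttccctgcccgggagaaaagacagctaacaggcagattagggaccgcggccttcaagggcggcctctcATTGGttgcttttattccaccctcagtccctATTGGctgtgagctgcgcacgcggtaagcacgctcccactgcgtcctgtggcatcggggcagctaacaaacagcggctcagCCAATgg
Coq8a downstream: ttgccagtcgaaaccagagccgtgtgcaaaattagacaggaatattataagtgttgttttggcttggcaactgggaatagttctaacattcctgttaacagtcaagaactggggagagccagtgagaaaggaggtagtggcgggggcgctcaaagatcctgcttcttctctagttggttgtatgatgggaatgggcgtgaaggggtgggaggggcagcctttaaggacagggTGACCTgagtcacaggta
Coq6: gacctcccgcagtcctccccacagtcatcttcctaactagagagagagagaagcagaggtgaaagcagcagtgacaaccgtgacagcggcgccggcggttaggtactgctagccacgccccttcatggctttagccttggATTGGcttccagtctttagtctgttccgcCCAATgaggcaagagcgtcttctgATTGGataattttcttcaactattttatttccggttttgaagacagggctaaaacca
Coq2: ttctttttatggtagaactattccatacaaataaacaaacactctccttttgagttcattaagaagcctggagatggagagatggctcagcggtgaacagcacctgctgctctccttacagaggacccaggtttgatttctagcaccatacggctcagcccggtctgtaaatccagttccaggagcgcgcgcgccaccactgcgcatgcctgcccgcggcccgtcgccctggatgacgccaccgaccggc

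RefSeq held 11 such windows for 9 of the 10 genes, all but Coq5. The upstream Coq8a window and the Coq6 window each held CCAAT 3 times, and 2.79% of all 32851 windows of this length held it 3 or more times. The windows of Coq7 and Coq10b, genes that did not pass, held CCAAT 2 times and 1 time. Both windows of Coq3, which fell, held it 0 times, as did the downstream Coq8a window and the Coq2 window. Whether the count goes with the direction of change was not tested. At least 1 CCAAT was present in 4 of the 11 windows and in 33.8% of all windows. AGGTCA was present in 3 of 11, among them the downstream Coq8a window, and in 14.0% of all. Of 4 further motifs searched on both strands, CCGGAAG (ETS factors) was in 1 of 11 and 6.91% of all windows, and ACGTG (hypoxia-inducible factors) in 3 of 11 and 16.6%. The NRF1 palindrome was in 0 of 11 and 0.782%, and CAAGGTCA (oestrogen-related receptors), which contains AGGTCA, in 0 of 11 and 1.33%. These matches describe letters only. CCAAT and AGGTCA were picked after the windows had been read.

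The arrays share a deposited scale, a trimmed mean of 150 on each. Their spike control probe sets were brighter on control replicates 1 and 2 and resveratrol replicate 1 than on the other 3 arrays, and changes of the tested member probe sets are given within both sets below, without a test since each set has 1 array of a group. The cells carried the transcripts of fat cells: the summed intensity of the adipocyte markers Adipoq, Fabp4, Lpl and Cidec was 24934 to 40217 in control and 24595 to 31514 in treated cultures. On arrays with brighter spikes the sum was 34633 and 40217 (control) and 31514 (treated). With dimmer spikes it was 24934 (control) and 24595 and 25148 (treated), so these ranges also hold the split by spike signal. Of these 4 markers 1, Cidec, fell (log2 change -0.57). The brightest Fabp4 probe set had -0.22 and the next brightest -0.14, and neither passed, while 2 dimmer ones fell by 0.51 and 0.67. Of 5 preadipocyte and fibroblast markers, summing to 17918 to 21407 and 16269 to 19712, Thy1 rose by 0.40 and 4 did not pass. Macrophage markers summed to 266 to 336 in control and 362 to 420 in treated cultures, and of 5 tested Cd14 rose by 0.47, while Ptprc was too dim to be tested. Lyz2 was also higher on every treated array (log2 change 0.43) but did not pass (adjusted p = 0.102 in limma). Summed muscle markers were at 185 to 258 and 212 to 267 and endothelial markers at 49.1 to 74 and 64.3 to 88.3, and of 4 and 2 tested none passed in limma or had an unadjusted p under 0.05. The part of these markers in the results below was not tested. In such bulk RNA, fewer fat cells and less transcript per fat cell cannot be told apart.

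The tail is made by a prenyl diphosphate synthase of Pdss1 and Pdss2 subunits. Pdss2 (Entrez gene 71365) had intensities of 156, 142 and 147 in control replicates 1 to 3 and 156, 160 and 119 in resveratrol replicates 1 to 3. The groups overlapped, and resveratrol replicate 3 was the lowest array. The log2 change was -0.03 ± 0.12 (SE), with a 95% interval of -0.30 to 0.23 and adjusted p = 0.91 in limma. It was 0.06 on arrays with brighter spikes and -0.07 on arrays with dimmer spikes. The other 2 probe sets of Pdss2, at most 14.5 on any array, were too dim to be tested.

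Coq2, the polyprenyltransferase that joins tail and ring, was the member that rose. Coq2 (Entrez gene 71883) had intensities of 559, 494 and 488 in control cultures and 680, 709 and 634 in treated cultures. Every treated array lay above every control array. The mean went from 514 ± 39.2 to 674 ± 37.9 (SD, n = 3). Limma put the log2 change at 0.38 ± 0.08 (SE; adjusted p = 0.0156). It was 0.36 on arrays with brighter spikes and 0.44 on arrays with dimmer spikes. The direction was kept under all 17 alternatives, where limma's adjusted p ran from 0.00898 to 0.0864. The call was lost without control replicate 2 (adjusted p = 0.0700), resveratrol replicate 1 (0.0615) or resveratrol replicate 2 (0.0736), and without an intensity trend in the variance model (0.0864).

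The ring is then methylated and hydroxylated. Coq5 (Entrez gene 52064), the C-methyltransferase, has 2 probe sets and both fell. The brighter read 827, 735 and 733 in control cultures and 572, 648 and 585 in treated cultures, a log2 change of -0.34 ± 0.08 (SE, adjusted p = 0.0275 in limma). The other read 603, 604 and 584, then 432, 452 and 411. Neither probe set had overlapping groups. For this second probe set the change was -0.46 ± 0.07 (SE) with adjusted p = 0.00339, -0.47 on arrays with brighter spikes and -0.43 on arrays with dimmer spikes. It passed under all 16 alternatives that include it, with adjusted p from 0.0018 to 0.039, and its name marks it as one that may also detect other transcripts. The brighter probe set changed by -0.44 and -0.25 on the arrays with brighter and with dimmer spikes. It passed under 11 of 17 alternatives (adjusted p from 0.0165 to 0.117) and was lost without control replicate 1 (0.0737), control replicate 2 (0.0648), resveratrol replicate 1 (0.112) or resveratrol replicate 3 (0.0805), without a filter (0.0568) and without the intensity trend (0.117).

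Coq3 (Entrez gene 230027), the O-methyltransferase that acts at both O-methylation steps, read 599, 558 and 557 in control cultures and 453, 472 and 461 in treated cultures. All treated arrays lay below all control arrays. The mean went from 571 ± 23.9 to 462 ± 9.83 (SD, n = 3). Limma put the log2 change at -0.30 ± 0.07 (SE; adjusted p = 0.0286). It was -0.34 and -0.25 on the arrays with brighter and with dimmer spikes. A dimmer probe set of Coq3 read 68.3, 70.4 and 78.2, then 40.2, 53.4 and 46.2. It also had no overlap, with a log2 change of -0.50 ± 0.14 that did not pass (adjusted p = 0.0519, and 0.0312 to 0.168 over 17 alternatives). Between the sets of arrays by spike signal it was -0.60 (brighter) and -0.52 (dimmer). For the brighter probe set, adjusted p ran from 0.0177 to 0.116 over 17 alternatives, of which 9 kept the call. Those that lost it included the fits without control replicate 1 (0.0721), control replicate 2 (0.0771), resveratrol replicate 1 (0.107), resveratrol replicate 2 (0.0766) or resveratrol replicate 3 (0.0716), with the split by spike signal as a block (0.0560) and without the intensity trend (0.116).

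Coq6 (Entrez gene 217707), a flavin-dependent monooxygenase that hydroxylates the ring, read 311, 321 and 282 in control cultures and 209, 241 and 242 in treated cultures. The groups lay apart, with resveratrol replicate 1 lowest. The mean went from 304 ± 20.4 to 231 ± 18.7 (SD, n = 3). Limma put the log2 change at -0.38 ± 0.09 (SE; adjusted p = 0.0288). The change was -0.56 on arrays with brighter spikes and -0.21 on arrays with dimmer spikes. The call held under 10 of 17 alternatives, with adjusted p from 0.0209 to 0.118. It was lost without control replicate 1 (0.0644), control replicate 2 (0.115), resveratrol replicate 1 (0.118) or resveratrol replicate 2 (0.0632), with the split by spike signal as a block (0.0553), without a filter (0.0556) and without the intensity trend (0.0967).

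Coq7 (Entrez gene 12850), the hydroxylase of the last ring hydroxylation, had the controls that varied most in proportion to their mean. They read 257, 394.5 and 323, against 324, 298 and 302 in treated cultures. The treated arrays lay inside the range of the controls. The log2 change was -0.06 ± 0.13 (SE), with a 95% interval of -0.34 to 0.22 and adjusted p = 0.859 in limma. For Coq7 the sign differed between the arrays with brighter spikes (0.02) and with dimmer spikes (-0.10). Coq9 (Entrez gene 67914), a lipid-binding protein that works with Coq7, read 1709, 1587 and 1431 in control cultures and 1244, 1396 and 1313 in treated cultures. All treated arrays were below all controls, yet the log2 change of -0.25 ± 0.09 (SE) did not pass (adjusted p = 0.1 in limma). It passed under 1 of 17 alternatives, without control replicate 3, at -0.32 (adjusted p = 0.0404, and up to 0.296 under the others). It was -0.40 on arrays with brighter spikes and -0.08 on arrays with dimmer spikes. The second probe set of Coq9, at 13.8 to 27.6 over the 6 arrays, had -0.12 ± 0.19 and did not pass (-0.13 with brighter and -0.07 with dimmer spikes).

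**Figure D1:**
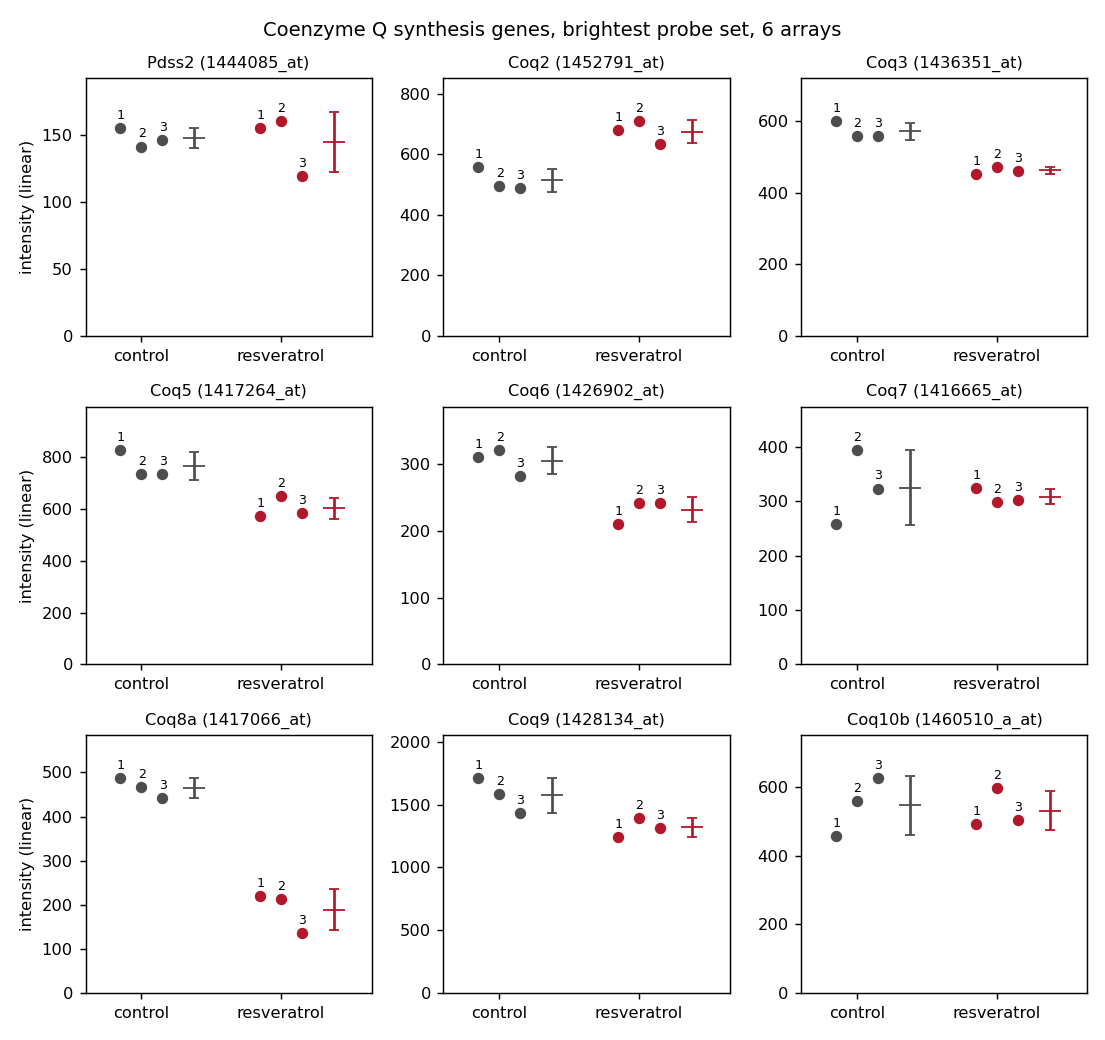
Intensity (linear scale, vertical axis) of the brightest probe set of each of the 9 genes on the 3 control arrays (grey) and 3 resveratrol arrays (red); numbers are replicates, and the bar beside the points is the mean ± SD. In Coq8a the treated arrays lie at 135 to 220 against 441 to 487 in control, while those of Pdss2, Coq7 and Coq10b overlap with their controls.

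Coq8a had the deepest fall of the 9 genes. Coq8a (Entrez gene 67426) had intensities of 487, 466 and 441 in control cultures and 220, 213 and 135 in treated cultures. The groups lay far apart, and resveratrol replicate 3 was the lowest array. The mean went from 465 ± 22.8 to 189 ± 47.2 (SD, n = 3). Limma put the log2 change at -1.26 ± 0.15 (SE; adjusted p = 0.000485). Ordered by log2 change from the deepest fall, Coq8a stood at rank 47 of 12630 genes tested. The change was -1.06 on arrays with brighter spikes and -1.30 on arrays with dimmer spikes. The call held under all 17 alternatives, with changes from -1.37 to -1.05 and adjusted p from 0.00015 to 0.0138. A second probe set of Coq8a, at 6.6 to 25.7 over the arrays, was too dim to be tested.

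Coq8b, the paralog of Coq8a, read 95.1, 80.2 and 104.5 in control cultures and 104, 101 and 77.6 in treated cultures. The groups overlapped, and the log2 change was 0.01 ± 0.14 (SE), with a 95% interval of -0.30 to 0.32 and adjusted p = 0.981 in limma. Within each array, the log2 ratio of Coq8a to Coq8b relative to its control mean was 0.04, 0.18 and -0.22 in control cultures and -1.17, -1.18 and -1.45 in treated cultures. The ratio changed by -1.27, with an exact permutation p = 0.1 (2-sided), the smallest that 3 against 3 arrays allow. Because Coq8b hardly changed, the ratio restates the fall of Coq8a and is not separate evidence.

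Coq10b (Entrez gene 67876), a lipid-binding protein needed for the function of coenzyme Q in respiration, read 456, 558 and 625 in control cultures and 492, 596 and 504 in treated cultures. The treated arrays lay inside the range of the controls. The log2 change was -0.03 ± 0.11 (SE), with a 95% interval of -0.29 to 0.22 and adjusted p = 0.909 in limma, and -0.04 and -0.18 with brighter and dimmer spikes. Its second probe set had -0.05 ± 0.09 and did not pass (adjusted p = 0.804), and its sign differed between brighter (-0.19) and dimmer spikes (0.04).

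Over the 13 probe sets tested, 5 fell, 1 rose and 7 did not pass, where 8.17% of all probe sets tested changed, 4.22% fell and 3.95% rose. The arrays of the groups lay apart for 8 of the 13, against 26.4% of all probe sets tested. The 3 arrays of each group lay apart for 6 of the 9 genes, 5 lower and 1 higher, against 30.2% of all genes tested. The log2 change was negative for 8 of 9 genes, against 46.3% of all genes tested. The median was -0.25 over the 9 genes and 0.02 over all genes tested. Because the genes were chosen with results of these data known, these shares are given without a test.

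**Figure D2:**
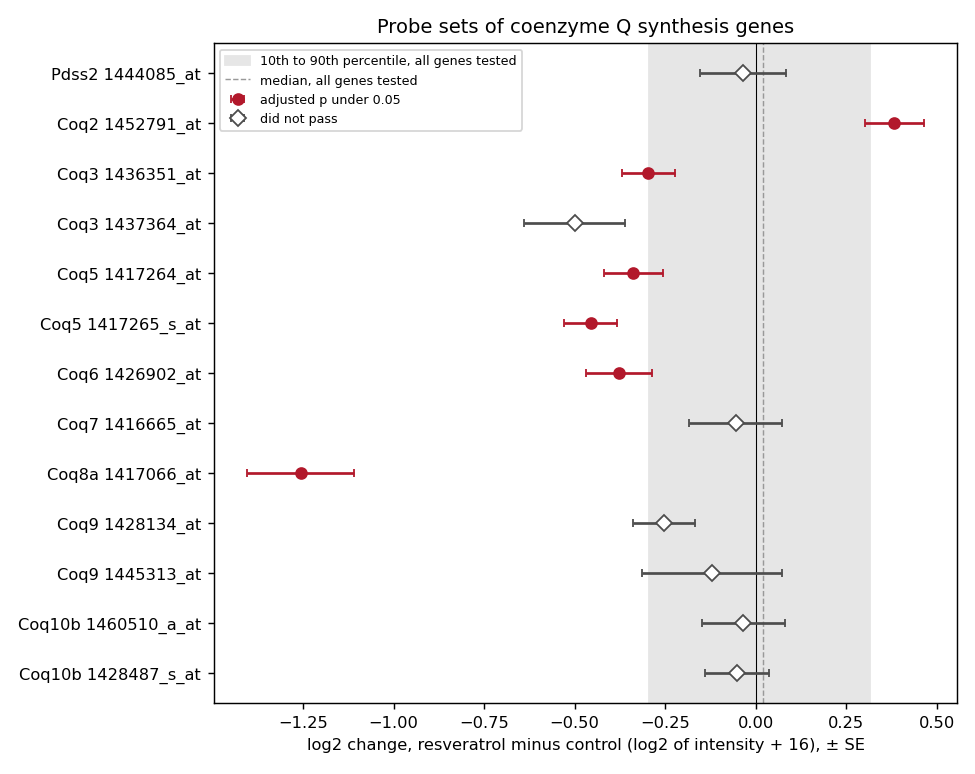
Log2 change with resveratrol (horizontal axis, log2 of intensity plus 16, ± SE) of the 13 tested probe sets; filled circles passed at an adjusted p under 0.05 and open diamonds did not. The grey band spans the 10th to 90th percentile of all genes tested, -0.29 to 0.31. Coq8a at -1.26 lies farthest from it and Coq2 at 0.38 is the one called higher.

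The 3 genes whose values ran closest to those of Coq8a over the 6 arrays were Rflna, Hp and Gpt. Their log2 values, each centred on its mean, differed from those of Coq8a by a root mean square of 0.09, 0.11 and 0.11. Rflna read 380, 356 and 321 in control cultures and 180, 157 and 116 in treated cultures. Hp had a log2 change of -1.40 and Gpt of -1.37. In all 3, as in Coq8a, resveratrol replicate 3 was the lowest array. The genes were picked for nearness to Coq8a on these arrays, so this likeness comes with the choice. The probe sets of Rflna and Gpt have names that mark them as ones that may also detect other transcripts.

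Among 5 partners of the pathway with a probe set, 1 fell and 4 did not pass, where 10.5% of all genes tested changed. Fdx1, a mitochondrial ferredoxin, read 1619, 1648.5 and 1497 in control cultures and 1234, 1340 and 1230 in treated cultures. Its treated arrays were all lower, with a log2 change of -0.32 ± 0.08 (SE, adjusted p = 0.025 in limma). The call was lost without control replicate 1 or 2 or resveratrol replicate 1 or 3 (adjusted p from 0.0616 to 0.1), without a filter and without the intensity trend, and ran from 0.00962 to 0.111 over 17 alternatives. Coq4, a member of the synthesis complex, read 128, 107.5 and 108, then 156, 123 and 148, and its groups overlapped. Its log2 change of 0.28 ± 0.12 did not pass (adjusted p = 0.196). Coq10a, the paralog of Coq10b, had 0.22 ± 0.14 (adjusted p = 0.398), and Pptc7, a mitochondrial phosphatase, had -0.12 ± 0.09 (adjusted p = 0.506).

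Of the enzymes that supply the isoprenoid units, 2 of 7 fell and 5 did not pass, where 5.21% of all genes tested fell. Idi1, the isopentenyl diphosphate isomerase, read 1721, 1874 and 1861 in control cultures and 1061, 1161 and 1228 in treated cultures. These groups lay well apart, and Idi1 changed by -0.66 ± 0.08 (SE, adjusted p = 0.000625). Pmvk, the phosphomevalonate kinase, had -0.50 ± 0.11 (adjusted p = 0.0191), a call lost without resveratrol replicate 2 (0.0818) or 3 (0.0549), without a filter and without the intensity trend, over a range of 0.0116 to 0.0829. The list median was -0.16, against 0.02 over all genes tested. On the ring side, Hpd, which sends the tyrosine product 4-hydroxyphenylpyruvate towards breakdown, read 125, 127 and 140, then 48.0, 42.0 and 33.5. It fell 3.18-fold, a log2 change of -1.37 ± 0.14 (adjusted p = 0.00016), and passed under all 17 alternatives. Hpdl, its homolog in the supply of the ring precursor, was dim at 23.7 to 38.4 and had 0.05 ± 0.17 (adjusted p = 0.904).

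Of 11 tested genes for enzymes other than complex I that reduce coenzyme Q, 7 fell, 1 rose and 3 did not pass, where 5.21% of all genes tested fell and 5.32% rose. Their median log2 change was -0.35, against 0.02 over all genes tested. Etfdh, which brings electrons from fatty acid oxidation to coenzyme Q, read 1420, 1260 and 1397 in control cultures and 928, 922 and 858 in treated cultures. It changed by -0.58 ± 0.08 (SE, adjusted p = 0.00104 in limma). Gpd2, the mitochondrial glycerol 3-phosphate dehydrogenase, read 513, 582.5 and 576, then 346, 362 and 332, a change of -0.66 ± 0.08 (adjusted p = 0.000627). In both genes the groups lay far apart. Prodh, the proline dehydrogenase, had -0.90 ± 0.20, and Aifm2, which reduces coenzyme Q outside mitochondria, had -0.35 ± 0.09. In succinate dehydrogenase, complex II, Sdha had -0.70, Sdhb -0.39 and Sdhc -0.33, and Sdhd had -0.26 and did not pass (adjusted p = 0.114). Probe sets of a gene did not always move alike. Dim ones of Gpd2 (-0.09) and Sdha (-0.10) overlapped between groups and did not pass. A second Sdhd probe set, not dim at 311 to 423 over the arrays, also overlapped and did not pass (0.01). That of Sdhc (-0.33) lay apart but did not pass (adjusted p = 0.0543 in limma). Others of Gpd2 (-0.38 and -0.59), Sdha (-0.56) and Aifm2 (-0.64 and -0.43) passed in the direction of the brightest.

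Nqo1, a cytosolic quinone reductase, was the gene of this group that rose, by 0.60 ± 0.10 (SE, adjusted p = 0.0038 in limma). Dhodh, the coenzyme Q-linked enzyme of pyrimidine synthesis, read 121, 108 and 129, then 163, 179 and 137. Its groups did not overlap, but the change of 0.37 ± 0.12 did not pass (adjusted p = 0.0847). Sqor, the sulfide quinone oxidoreductase, had -0.23 ± 0.08 and did not pass (adjusted p = 0.122). The calls of Etfdh, Gpd2, Sdha and Nqo1 held under all 17 alternatives. Other calls ended when single arrays were left out. Prodh was lost without control replicate 2 or 3 or resveratrol replicate 1 or 3, with adjusted p from 0.00518 to 0.084 over its alternatives. Sdhb was lost without control replicate 2 or any treated replicate (0.00231 to 0.0889). Sdhc was lost when any array other than control replicate 3 was left out (0.0106 to 0.143). The brightest Aifm2 probe set was lost when any single array was left out (0.025 to 0.128). Other Aifm2 probe sets, whose names mark them as ones that may detect other transcripts, passed with all arrays (-0.64 and -0.43, adjusted p = 0.00353 and 0.0221 in limma).

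**Figure D3:**
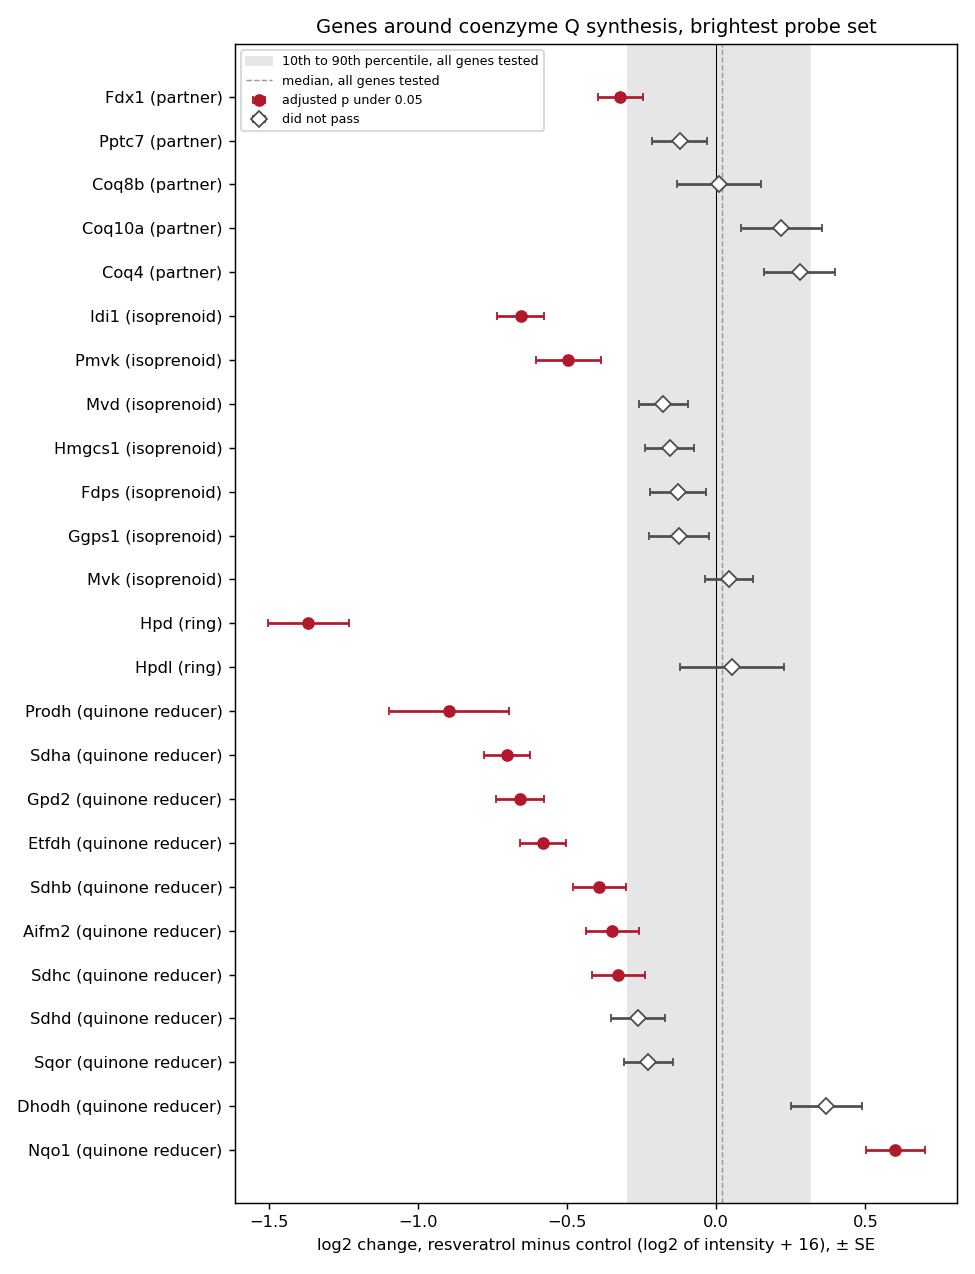
Log2 change with resveratrol (horizontal axis, ± SE) of tested genes around coenzyme Q synthesis, by group: partners of the pathway, isoprenoid supply, ring supply and coenzyme Q-reducing enzymes. Filled circles passed and open diamonds did not; the band is the 10th to 90th percentile and the dashed line the median of all genes tested. Hpd at -1.37 lies lowest and Nqo1 at 0.60 highest.

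**Figure D4:**
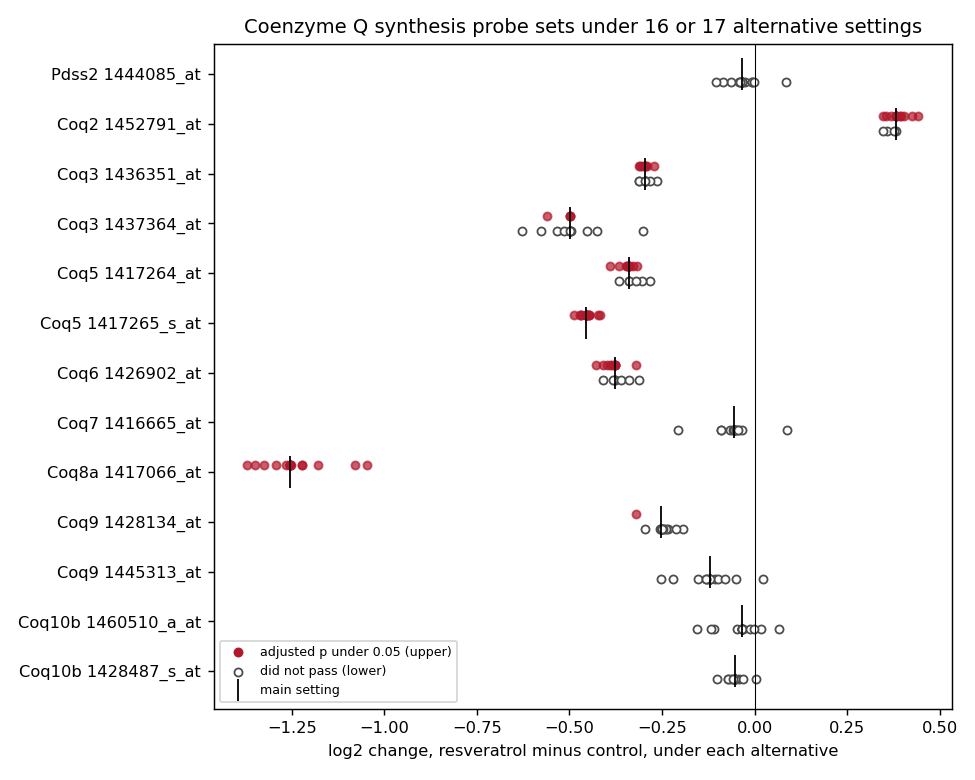
Log2 change (horizontal axis) of each tested member probe set under 16 or 17 alternative settings, red where the adjusted p was under 0.05 and open where not; the black tick is the value reported. Coq8a and the second Coq5 probe set are red throughout, while Coq2, Coq3, Coq6 and the brighter Coq5 probe set keep their side of 0 and are red in part.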

How the data were processed

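Total RNA was extracted with Trizol and labelled with biotin for 1-colour oligonucleotide arrays (per the labels' protocols). What the authors deposited is 1 linear intensity per probe set, already scaled: judged from the values, each of the 6 arrays has a mean of 150 once 2% is trimmed from both ends. The sources used here do not name the summarisation software. Of 45101 probe sets, 64 controls were left out, and 34945 name 1 gene in the platform annotation. Treated and control arrays were compared in limma 3.58.1 under R 4.3.3, using lmFit and a moderated test with an intensity trend, on log2(intensity + 16). Probe sets entered if their mean log2 value was among the highest 60%, with 2-sided p-values adjusted by Benjamini-Hochberg and a threshold of 0.05. The fit was tested on simulated data. Where several probe sets name a gene, the brightest stands for it. The members, lists, motifs and alternatives were chosen with earlier results of these data known. The rule was to describe each member probe set, to name from the other lists the partners and the genes that passed, and to name the 3 genes nearest to the member with the smallest p. Other list genes were named after their values were seen. The alternatives changed the normalization (quantile), the offset (1 or 64), the filter (none or the brightest 40%), the variance model, the array weights, the summary of a gene (mean over probe sets) and the probe sets admitted (none that may detect several transcripts). Others used a block (replicate number, or the split of arrays by 18 spike probe sets) or left out an array. For genes outside the members they were added after the data were seen. Figures were drawn with matplotlib 3.10.9 in Python 3.11.15.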

Additional observations from a re-analysis of the deposited data

How the results depend on the processing

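The counts of 4 lower genes and 1 higher gene moved with the settings, while Coq8a was among the lower genes in all of them. Lower genes numbered 2 without a filter, 2 with the split by spike signal as a block and 1 without an intensity trend, and 1 to 5 when single arrays were left out. Lower probe sets, 5 as reported, numbered 3 without a filter, 2 without an intensity trend and 2 to 6 with single arrays left out. The higher gene and probe set, Coq2 in both, numbered 0 without an intensity trend and 0 to 1 with single arrays left out; at an unadjusted p under 0.05 in limma it was 1 gene in each of these fits. Over the whole array 2209 probe sets changed, 1396 without a filter, 861 without an intensity trend and 1131 to 1952 with single arrays left out. Without probe sets that may detect several transcripts 1431 changed. The fit without a filter tested more probe sets and this last fit fewer, so their counts do not share a denominator. The median change of the genes stayed negative, at -0.31 to -0.21 with single arrays left out. Signs turned for changes that did not pass. With single arrays left out, Coq7 ran from -0.21 to 0.088 (higher without control replicate 2), Pdss2 from -0.10 to 0.086 (without resveratrol replicate 3), the dim Coq9 probe set from -0.25 to 0.022 (without resveratrol replicate 3) and Coq10b from -0.15 to 0.067 (without control replicate 3, and without resveratrol replicate 1). The second Coq10b probe set ran from -0.10 to 0.00505 (without resveratrol replicate 1) and Coq8b from -0.079 to 0.12, negative without control replicate 2 or resveratrol replicate 1 or 2. The cause was not tested.

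With the replicate number as a block, 1894 probe sets changed, 3 member genes were lower and 1 was higher, and Coq3 (adjusted p = 0.0536) and Aifm2 (0.0686) were lost. Deviations of arrays of the same number had r = -0.06, -0.02 and 0.09 across probe sets, for replicates 1 to 3. Control replicates 1 and 2 correlated best with resveratrol replicates 2 and 1 (r = 0.09 and 0.08), and control replicate 3 with resveratrol replicate 3. All these values were small, so the numbers were not taken to pair the cultures. Probe sets of low signal limit what can be seen for Pdss2 and for the second probe sets of Coq8a and Coq9.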
